A study of Mus musculus with 16 samples.

Results

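Genes of the CCR2 axis of monocyte recruitment were followed in quadriceps muscle of mice after the anterior cruciate ligament (ACL) had been cut. The 7 members were named one by one: the receptor gene Ccr2, the monocyte genes Ly6c2, Plac8 and F13a1, and the chemokine genes Ccl2, Ccl7 and Ccl8. All 7 were among the 17370 genes of the deposited table, and 6 of them were among the 15411 genes that passed the filter on low counts, Ccl7 being the exception. Total RNA was sequenced in 16 libraries that made 4 groups of 4. Healthy placebo and injured placebo quadriceps came from mice that drank 0.5% sucrose for 7 days after the operation, and healthy inhibitor and injured inhibitor quadriceps from mice given a CSF1-R inhibitor at 40 mg/kg over the same days. CSF1-R is the receptor through which macrophages and their precursors receive a survival signal. Names of the libraries put each injured quadriceps beside a healthy one under a shared stem, which was read as the 2 limbs of 1 of 8 animals, so on this reading the healthy muscle came from a mouse whose other knee had been operated. The deposited design text instead speaks of muscle before and after the operation, and the values within and per animal rest on the reading from the names. In those names every healthy limb is marked L and every injured limb R, so side and injury cannot be told apart. Strain, sex, age and the name of the compound are not given in the sources used here.

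Classical monocytes leave the bone marrow and enter damaged tissue through CCR2, a chemokine receptor coupled to inhibitory G proteins. Its ligands, chiefly the products of Ccl2 and Ccl7 and, in mouse, Ccl12, are released by injured tissue, endothelium and activated macrophages. In damaged skeletal muscle the recruited cells clear debris and turn into macrophages that act on repair.

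Libraries held 20.12 to 27.13 M counts (M, mega), and 3 counts, taken as the floor of detection, corresponded to 0.109 to 0.159 counts per M library counts (CPM), a limit that covers counting error only. The libraries were muscle: the sarcomeric actin gene Acta1 had at least 531580 counts and the creatine kinase gene Ckm at least 308226 in each library. Of 4 libraries that stood apart, 3 were of placebo mice. Prg4, which encodes lubricin of the joint lining, reached 220 and 286 CPM in injured placebo 2 and 3. Healthy placebo 4 had 251 CPM and healthy inhibitor 1 had 169 CPM of it, against 3.97 to 19.5 CPM in the other 12. Members' differences are also given without these 4 libraries, an alternative chosen after seeing the data.

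The summed level of 16 resident macrophage genes was 344, 514 and 517 CPM in the 3 placebo libraries high in Prg4, 203 CPM in healthy inhibitor 1, and 102 to 202 CPM in the other 12. Gas6, 1 of these genes, was by itself at 75.7 to 118 CPM over all libraries and thus made up a large part of the lower sums. The summed level of 9 neutrophil genes was 33.7, 27.6 and 5.89 CPM in the 3 placebo libraries high in Prg4. It was 21.6 CPM in healthy inhibitor 1 and 0.957 to 5.67 CPM elsewhere. Among these neutrophil genes the granule genes Camp and Ngp were each at 0 in 12 of the 16 libraries, and among the 7 joint genes the aggrecan gene Acan was at 0 in 11. In whole muscle, fewer cells of a type and less RNA per cell cannot be told apart. The labels call the samples biological replicates, and p-values here measure the spread between them. The main injury comparisons treat both limbs of an animal as separate samples, and blocking on the animal is given as an alternative.

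The receptor gene Ccr2 (ENSMUSG00000049103, GRCm38 chromosome 9, 124101950 to 124113557) was at 1.28, 3.3, 2.29 and 17.5 CPM in healthy placebo 1 to 4. It was at 5.94, 54.9, 49 and 4.7 CPM in injured placebo 1 to 4. With the inhibitor it was at 3.57, 1.53, 2.68 and 2.22 CPM in healthy and at 2.05, 1.85, 7.8 and 2.63 CPM in injured muscle. The receptor was thus high in 3 placebo libraries, 2 of them injured and 1 healthy, and it stayed under 8 CPM in the 13 others. The group means were 6.09 ± 7.65 (SD, n = 4), 28.6 ± 27, 2.5 ± 0.855 and 3.58 ± 2.83 CPM in the same order, and each group's range overlapped that of its neighbour in the order of means. Such an overlap of all neighbours was seen for each of the 7 members, and injured placebo had the highest mean for all of them.

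F13a1 (ENSMUSG00000039109, chromosome 13, 36867178 to 37050244) encodes the A subunit of coagulation factor XIII, which monocytes and some tissue macrophages make. It was at 3.15, 9.39, 3.62 and 35.2 CPM in healthy placebo 1 to 4 and at 18, 32.9, 59.2 and 8.81 CPM in injured placebo 1 to 4. It was at 14.1, 7.07, 4.06 and 3.7 CPM in healthy inhibitor and at 7.02, 4.13, 5.49 and 5.89 CPM in injured inhibitor muscle. The lowest injured placebo library lay above the highest injured inhibitor library, while the healthy groups overlapped. Group means were 12.8 ± 15.2, 29.7 ± 22, 7.24 ± 4.83 and 5.63 ± 1.2 CPM (SD, n = 4 each).

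Plac8 (ENSMUSG00000029322, chromosome 5, 100553725 to 100572245) encodes a small cysteine-rich protein found in classical monocytes. Its level was 0.389, 1.13, 0.0416 and 5.02 CPM in healthy placebo and 0.268, 3.45, 3.05 and 0.21 CPM in injured placebo 1 to 4. With the inhibitor it was 0.732, 0, 0.153 and 0.106 CPM in healthy and 0.334, 0.106, 0.413 and 0.254 CPM in injured muscle. The highest library of all was a healthy one, and 4 of the 16 were under the floor.

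Ly6c2 (ENSMUSG00000022584, chromosome 15, 75108158 to 75111970, minus strand) encodes the Ly6C antigen by which classical monocytes are sorted. Its level was 0.117, 0.542, 0.25 and 0.837 CPM in healthy placebo and 0.625, 5.38, 1.68 and 0.0839 CPM in injured placebo 1 to 4. With the inhibitor it was 0.32, 0.191, 0.0766 and 0.106 CPM in healthy and 0.0955, 0.265, 0.33 and 0.254 CPM in injured muscle. Injured placebo 2 and 3 exceeded all other libraries, and 4 libraries were under the floor.

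The Ly6c2 counts need care because of a neighbour. Ly6c1, a paralog that endothelial cells make, was at 33.4 to 57.8 CPM in all 16 libraries, and Ly6c2 counts were 0.167 to 12.4% of Ly6c1 counts. The 2 coding sequences are 393 bases each and 384 of these are identical (97.7%), with a longest shared run of 188 bases. Of the 50-base windows of the Ly6c2 coding sequence, 47.1% also occur in transcripts of Ly6c1, and 30.3% of the 100-base windows do. Ly6c2 counts were not whole numbers in 8 of the 16 libraries, within a tolerance of 0.01, so its values are uncertain where reads could be split between the genes. The start of both coding sequences, from GENCODE M21 transcripts, is shown because it holds 6 of the positions at which the pair differs, set in capitals; others lie further on.
Ly6c2: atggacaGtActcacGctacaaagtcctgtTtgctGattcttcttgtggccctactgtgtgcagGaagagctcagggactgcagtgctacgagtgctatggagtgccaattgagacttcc
Ly6c1: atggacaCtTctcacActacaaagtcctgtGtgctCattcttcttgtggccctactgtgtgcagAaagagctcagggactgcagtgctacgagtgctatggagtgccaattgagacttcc

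**Figure D1:**
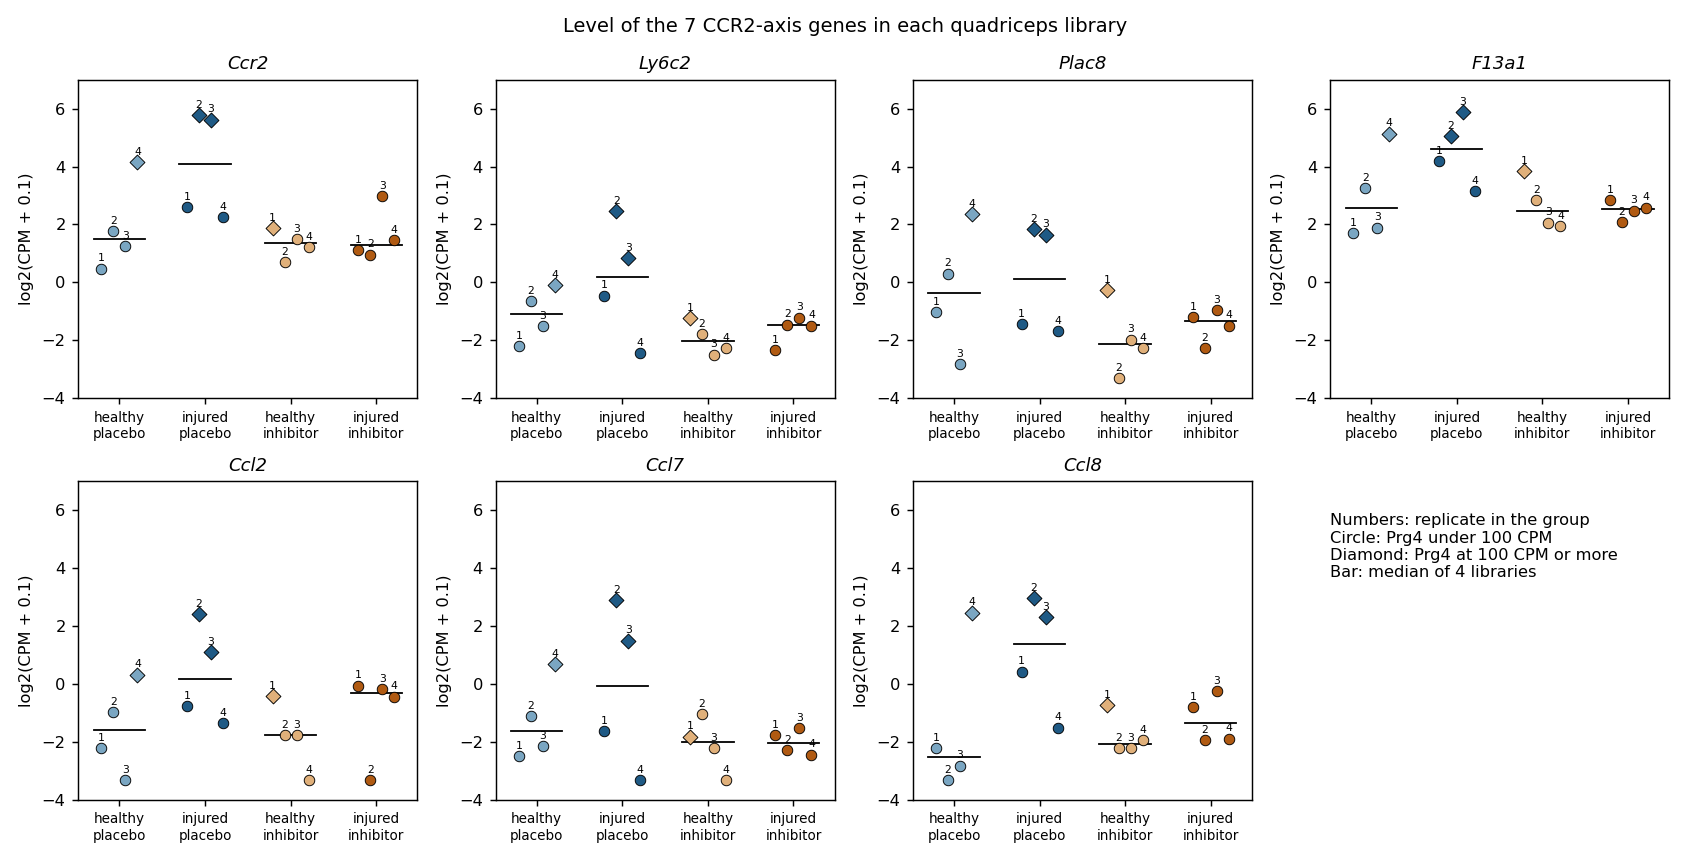
Level of each of the 7 genes in each library, by group, as log2(CPM + 0.1); numbers name replicates, the bar is the median of 4 libraries, and diamonds mark the 4 libraries with Prg4 at 100 CPM or more. In every gene the highest point is a placebo diamond, while the inhibitor diamond, healthy inhibitor 1, is lower than the 3 placebo ones, as with Ccr2 at 3.57 CPM.

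The 3 chemokine genes lie together on chromosome 11 with Ccl11 and Ccl12, in the order Ccl2, Ccl7, Ccl11, Ccl12, Ccl8, all on the plus strand within 81.2 kb. The cluster runs from 82035571, the start of Ccl2 (ENSMUSG00000035385), to 82116799, the end of Ccl8 (ENSMUSG00000009185). Coding sequences of Ccl2, Ccl7, Ccl8 and Ccl12 were 63.8 to 70.5% identical in pairs. None of the 50-base windows compared, Ccl2 or Ccl8 with Ccl12 and Ccl7 with Ccl2, was shared. Promoter sequences were at hand for 5 of the 7 members and for Ccl12, from RefSeq on GRCm38.p6; those of Ccl2 and Ccl7 were not. The last 100 bases before the annotated start of Ccl8 (chr11:82115085-82115184, plus strand) and Ccl12 (chr11:82101745-82101844, plus strand) are shown because these 2 neighbours carry the same box at nearly the same place, with the letters TATAAA in capitals.
Ccl8: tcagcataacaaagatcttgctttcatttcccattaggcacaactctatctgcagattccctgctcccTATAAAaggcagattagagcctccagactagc
Ccl12: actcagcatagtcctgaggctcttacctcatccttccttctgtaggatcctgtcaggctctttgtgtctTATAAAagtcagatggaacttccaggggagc
The box starts 32 bases before the annotated start in Ccl8 and 31 bases before it in Ccl12. The promoter windows of Ccr2, Ly6c2, Plac8 and F13a1 held no TATAAA. Searched on both strands, these letters occurred in 13.6% of 32851 promoter windows of 300 bases. The letters CCAAT (37.4% of windows), TGACTCA (5.2%) and the motifs of kappaB (20.7%) and interferon-stimulated response element (3.44%) type, searched in the same way, were not in the Ccl8 or Ccl12 window. A match or its absence describes letters only.

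Ccl2 encodes the main CCR2 ligand. Its level was 0.117, 0.406, 0 and 1.15 CPM in healthy placebo and 0.491, 5.23, 2.04 and 0.294 CPM in injured placebo 1 to 4. With the inhibitor it was 0.64, 0.191, 0.191 and 0 CPM in healthy and 0.86, 0, 0.784 and 0.636 CPM in injured muscle. Ccl2 was at 0 in 3 libraries, and only for it among the 7 members was the mean of injured inhibitor muscle, 0.57 ± 0.391 CPM (SD, n = 4), second to that of injured placebo muscle, 2.02 ± 2.28 CPM.

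Ccl7 (ENSMUSG00000035373, 82045712 to 82047525) encodes a ligand of CCR2 that also acts on other receptors. Its level was 0.0778, 0.361, 0.125 and 1.5 CPM in healthy placebo and 0.223, 7.38, 2.73 and 0 CPM in injured placebo 1 to 4. With the inhibitor it stayed between 0 and 0.382 CPM in healthy and between 0.0848 and 0.248 CPM in injured muscle. Only 3 libraries, all placebo, exceeded 1 CPM.

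Ccl8 encodes a chemokine of the same cluster that in mouse is known chiefly as a ligand of CCR8. Its level was 0.117, 0, 0.0416 and 5.42 CPM in healthy placebo and 1.25, 7.7, 4.89 and 0.252 CPM in injured placebo 1 to 4. With the inhibitor it was 0.503, 0.115, 0.115 and 0.159 CPM in healthy and 0.478, 0.159, 0.743 and 0.17 CPM in injured muscle. Healthy placebo thus held both the lowest value, 0, and one of the 3 highest.

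Per length of the merged exons, in reads per kilobase per M counts (RPKM), Ccl8 had the highest mean of the 7 members in injured placebo muscle, 6.9 ± 6.7 (SD, n = 4). F13a1 followed at 4.41 ± 3.27, Ccr2 at 4.24 ± 4, Ccl7 at 3.22 ± 4.28, Ccl2 at 1.77 ± 2.01, Plac8 at 1.1 ± 1.1 and Ly6c2 at 0.709 ± 0.87. The SD of these levels was close to or above the mean in all but F13a1, so neighbours in this order did not differ beyond their spread. The order also depends on the gene models: merged exons span 511 bases in Ccl8, from 1 transcript, and 6760 bases in Ccr2, from 4. The remaining CCR2 ligand gene, Ccl12, was at 0 in 4 libraries, was highest in injured placebo 2 and 3 at 0.872 and 0.962 CPM, and did not exceed 0.239 CPM in the other 14. Ccl11, the eotaxin gene that sits between Ccl7 and Ccl12, was at 5.45 to 14 CPM throughout, with group means of 8.72 ± 3.88, 10.4 ± 2.46, 7.7 ± 1.87 and 8.04 ± 1.35 CPM in healthy placebo, injured placebo, healthy inhibitor and injured inhibitor muscle.

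**Figure D2:**
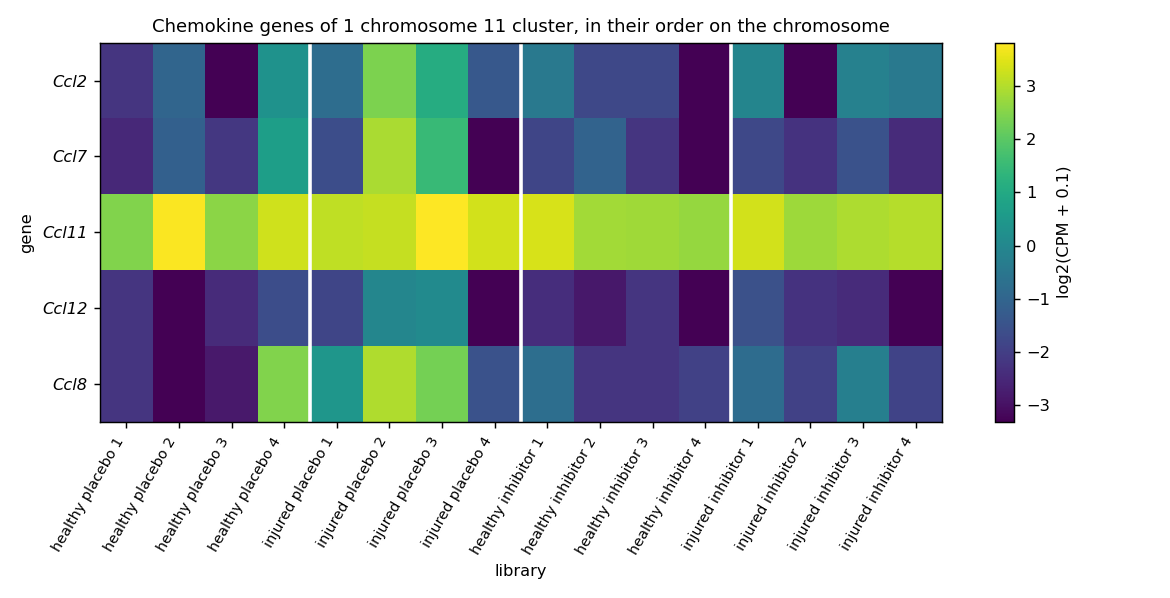
Heat map of the level of the 5 chemokine genes of the cluster as log2(CPM + 0.1), with genes as rows in their order along the chromosome and the 16 libraries as columns, white lines between groups. Ccl11 is bright in every library at 5.45 to 14 CPM, while Ccl2, Ccl7 and Ccl12 are brightest in injured placebo 2 and 3 and Ccl8 in these and in healthy placebo 4.

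The first comparison asked what ligament injury does in placebo muscle. All 6 tested members had a higher fitted level in injured than in healthy muscle, as did 51.1% of all tested genes, but none passed the test. The log2 difference was 2.24 ± 0.93 (SE) for Ccr2, 2.16 ± 0.85 for Ly6c2, 2.28 ± 1.14 for Ccl2, 1.34 ± 1.27 for Ccl8, 1.22 ± 0.75 for F13a1 and 0.09 ± 1.1 for Plac8. By the quasi-likelihood test of edgeR with Benjamini-Hochberg adjustment, adjusted p was 0.64 for Ccr2 and 0.75 for Ccl8, and no gene of the table was called (0%). At an unadjusted p under 0.05 were 1116 genes, among them Ccr2 and Ly6c2, so 2 of 6 members were higher there against 4.61% of all tested genes. DESeq2 called 2 genes and limma-voom none. Leaving out 1 library at a time moved the difference between 0.62 and 5.88 for Ccl8, 0.64 and 2.47 for F13a1, 1.18 and 3.53 for Ccl2, 0.87 and 2.69 for Ly6c2, -0.48 and 1.76 for Plac8 and 1.71 and 3.65 for Ccr2. The highest value came without healthy placebo 4 in each case, and the lowest without injured placebo 2 except for F13a1, where it came without injured placebo 3. The members' median log2 difference was 1.75 against 0.01 over all tested genes. No member separated the groups without overlap, against 0.87% of tested genes that were higher without overlap. Ccl7, fitted when no filter was applied, had a log2 difference of 2.31 ± 1.2.

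Within animals, the injured limb had the higher level in 3 of 4 placebo mice for 6 of the 7 members, and in 2 of 4 for Plac8. Ccr2 in the injured limb was 4.63, 16.7 and 21.4 times that of the healthy limb in placebo animals 1 to 3, and 0.269 times in animal 4. All 7 members were lower in the injured limb of animal 4, whose healthy limb was high in Prg4, and animals 2 and 3 had the Prg4-high library on the injured side. Without the 4 Prg4-high libraries the median log2 difference of the 6 members was 1.19, with Ccr2 at 1.21 ± 0.56, F13a1 at 1.31 ± 0.46, Ly6c2 at 0.22, Ccl8 at 3.64 ± 1.05 and Plac8 at -1.1; this left 3 healthy and 2 injured placebo libraries.

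**Figure D3:**
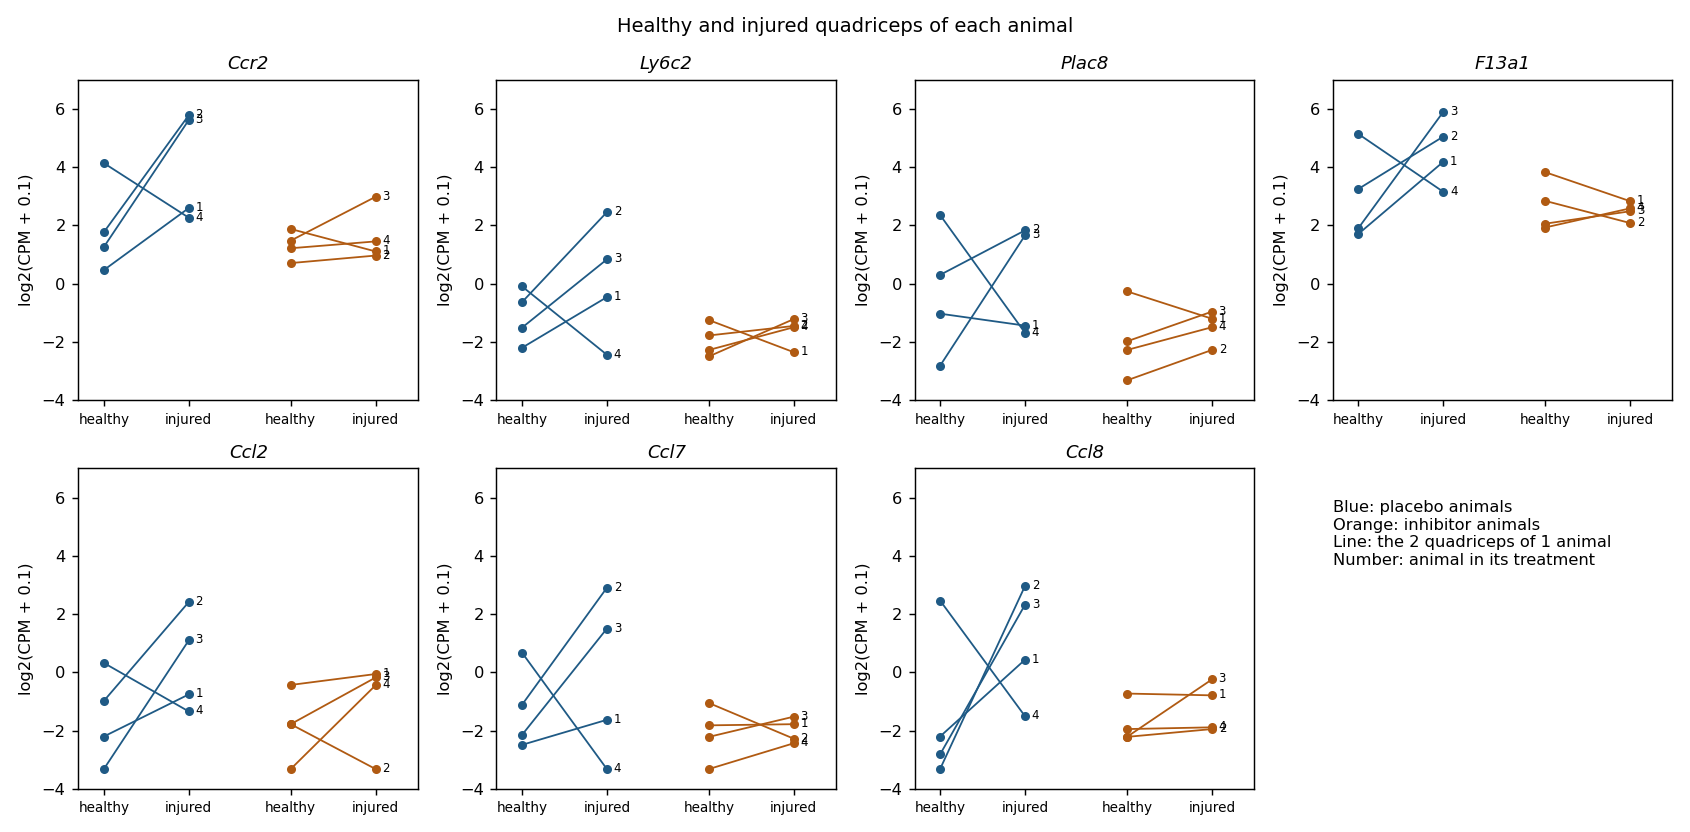
Levels of the 7 genes in the healthy and injured quadriceps of each animal, as log2(CPM + 0.1), 1 line per animal and numbers naming animals within a treatment. Lines of placebo animals 1 to 3 climb for all members but Plac8 in animal 1, and that of placebo animal 4 descends for all 7.

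With the inhibitor the log2 difference between injured and healthy muscle was 0.53 for Ccr2, 0.45 for Ly6c2, 0.2 for Plac8, -0.36 for F13a1, 1.15 for Ccl2 and 0.82 for Ccl8, with edgeR adjusted p of 1 for each. The median was 0.49 against 0 over all tested genes with all libraries. Without the 4 Prg4-high libraries it was 1.23, with 6 of 6 members above 0, against 1.19 and 5 of 6 in placebo muscle. Single members differed more than these medians, as the interaction values without the 4 libraries show below. No member was among the 202 genes at an unadjusted p under 0.05 (1.31% of tested genes), and no gene of the table was called by edgeR, 1 by DESeq2 and none by limma-voom. The injured limb was higher in 3 of 4 inhibitor mice for 6 members and in 2 of 4 for F13a1. Some of these directions rest on equal or very low counts. Healthy and injured limbs had 4 and 4 counts of Ccl7 in inhibitor animal 1. In inhibitor animal 2 they had 3 and 3 of Ccl8 and 0 and 2 of Plac8. The difference between the 2 injury effects, tested as an interaction, was -1.7 for Ccr2, -1.71 for Ly6c2, 0.1 for Plac8, -1.58 for F13a1, -1.13 for Ccl2 and -0.52 for Ccl8 (log2), again with edgeR adjusted p of 1. At an unadjusted p under 0.05 were 423 genes, and no gene was called by edgeR, DESeq2 or limma-voom, so an unequal injury effect was not shown for any tested member. Without the 4 libraries the interaction was -0.47 for Ccr2, 0.66 for Ly6c2, 2.76 for Plac8, -1.13 for F13a1, 0.88 for Ccl2 and -2.07 for Ccl8, 3 members on each side of 0. Averaged over both treatments the injury effect was 1.39 for Ccr2, 1.3 for Ly6c2, 0.15 for Plac8, 0.43 for F13a1, 1.71 for Ccl2 and 1.08 for Ccl8. No gene was called there by edgeR (0%), DESeq2 or limma-voom, and 757 were at an unadjusted p under 0.05. The members' median for this average was 1.19 with all libraries and 0.86 without the 4, with 6 of 6 above 0.

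The second comparison asked what CSF1-R inhibition does to the axis. In injured muscle all 6 tested members had a lower fitted level with the inhibitor, as did 53.1% of all tested genes. Each was lower by more than 1 on the log2 scale, a size that 6.82% of tested genes reached, and none passed the test. The log2 difference was -2.99 ± 0.97 (SE) for Ccr2, -3.01 ± 0.9 for Ly6c2, -2.62 ± 1.24 for Plac8, -2.4 ± 0.79 for F13a1, -1.8 ± 1.12 for Ccl2 and -3.16 ± 1.4 for Ccl8. Adjusted p by edgeR was 0.23 for Ccr2, 0.22 for Ly6c2, 0.34 for Plac8, 0.23 for F13a1, 0.46 for Ccl2 and 0.32 for Ccl8. At an unadjusted p under 0.05 in edgeR, 4 of 6 members were lower (Ccr2, Ly6c2, F13a1 and Ccl8) against 9.03% of tested genes, and no gene was called (0%) though 2289 reached that unadjusted p. F13a1 alone had groups that did not overlap, as did 2.86% of tested genes in that direction. DESeq2 called 248 genes, with Ccr2 and Ly6c2 lower at an adjusted p of 0.048 each, where 0.973% of its tested genes were called lower, and limma-voom called none.

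The median log2 difference of the 6 members in injured muscle was -2.8 against -0.02 over all tested genes, and -0.56 without the 4 Prg4-high libraries, which took away injured placebo 2 and 3. Without them the log2 difference was -0.56 for Ccr2, -0.55 for Ly6c2, 0.23 for Plac8, 0.55 for Ccl2 and -0.92 for Ccl8. F13a1 was at -1.25 ± 0.43 (SE), with edgeR adjusted p = 0.73. Its 2 remaining injured placebo libraries, at 8.81 and 18 CPM, lay above the range of the 4 injured inhibitor libraries, 4.13 to 7.02 CPM. How many of all tested genes separate in such a set of 2 against 4 was not determined, so no conclusion is drawn from this separation. In healthy muscle with all libraries, the inhibitor contrast was -1.28 for Ccr2, -1.3 for Ly6c2, -2.72 for Plac8, -0.82 for F13a1, -0.67 for Ccl2 and -2.63 for Ccl8, with edgeR adjusted p of 1. Plac8 was the 1 member at an unadjusted p under 0.05, and 2.03% of tested genes were lower at that p. No gene was called by edgeR though 514 reached that p, 12 by DESeq2 and none by limma-voom. The members' median in healthy muscle was -1.29 with all libraries and -0.22 without the 4. Without healthy placebo 4 alone, Ccr2 in healthy muscle was at 0.13, F13a1 at 0.43, Ccl2 at 0.58 and Ccl8 at 1.9.

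Counts of both limbs were then summed per animal, which compares 4 mice with 4 and lets all 7 members be tested among 15987 genes. Ccr2 was at 3.47, 31.7, 25.8 and 10.9 CPM in placebo animals 1 to 4 and at 2.85, 1.67, 5.14 and 2.46 CPM in inhibitor animals 1 to 4. Ccl8 was at 0.647, 4.25, 2.48 and 2.76 CPM and at 0.494, 0.134, 0.417 and 0.166 CPM, and Ly6c2 at 0.355, 3.2, 0.968 and 0.45 CPM and at 0.212, 0.223, 0.199 and 0.189 CPM. Ccl8 and Ly6c2 did not overlap between treatments, a separation that 3.53% of tested genes showed in that direction. The other 5 members overlapped, through placebo animal 1 alone for Ccr2, F13a1, Ccl7 and Plac8 and through placebo animals 1 and 4 for Ccl2.

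The log2 difference between inhibitor and placebo animals was -3.05 ± 0.6 (SE) for Ccl8, -3.24 ± 0.95 for Ccl7, -2.69 ± 0.73 for Plac8, -2.58 ± 0.7 for Ly6c2, -2.56 ± 0.72 for Ccr2, -1.71 ± 0.4 for F13a1 and -1.58 ± 0.74 for Ccl2. Adjusted p by edgeR was 0.14 for Ccl8, 0.22 for Ccl7, 0.19 for Plac8, 0.19 for Ly6c2, 0.22 for Ccr2, 0.19 for F13a1 and 0.36 for Ccl2. No gene was called (0%) though 2329 were at an unadjusted p under 0.05, and 6 of 7 members were lower at an unadjusted p under 0.05 against 9.28% of tested genes. DESeq2 called 587 genes, with 6 members lower where 2.7% of genes were called lower, from Ccl8 at an adjusted p of 4.3e-05 to Ccr2 at 0.014; Ccl2 was not called, and limma-voom called no gene. Leaving out placebo animal 1 gave 1570 genes called by edgeR, of which 1174 were lower (7.34% of genes). The same 6 members were lower, Ccl8 at -3.35 with an adjusted p of 0.0011. Placebo animal 1 was the only placebo animal without a Prg4-high library, so each placebo animal left in this fit held such a library. Without the 4 Prg4-high libraries the difference was -0.27 ± 0.35 for Ccr2, -0.75 for Ly6c2, -1.04 for Plac8, -0.52 for F13a1, 0.77 for Ccl2, 0.12 for Ccl7 and 0.12 for Ccl8, and edgeR called 1 gene. In that fit placebo animals 2 and 3 kept their healthy limb only, and placebo animal 4 and inhibitor animal 1 their injured limb only.

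**Figure D4:**
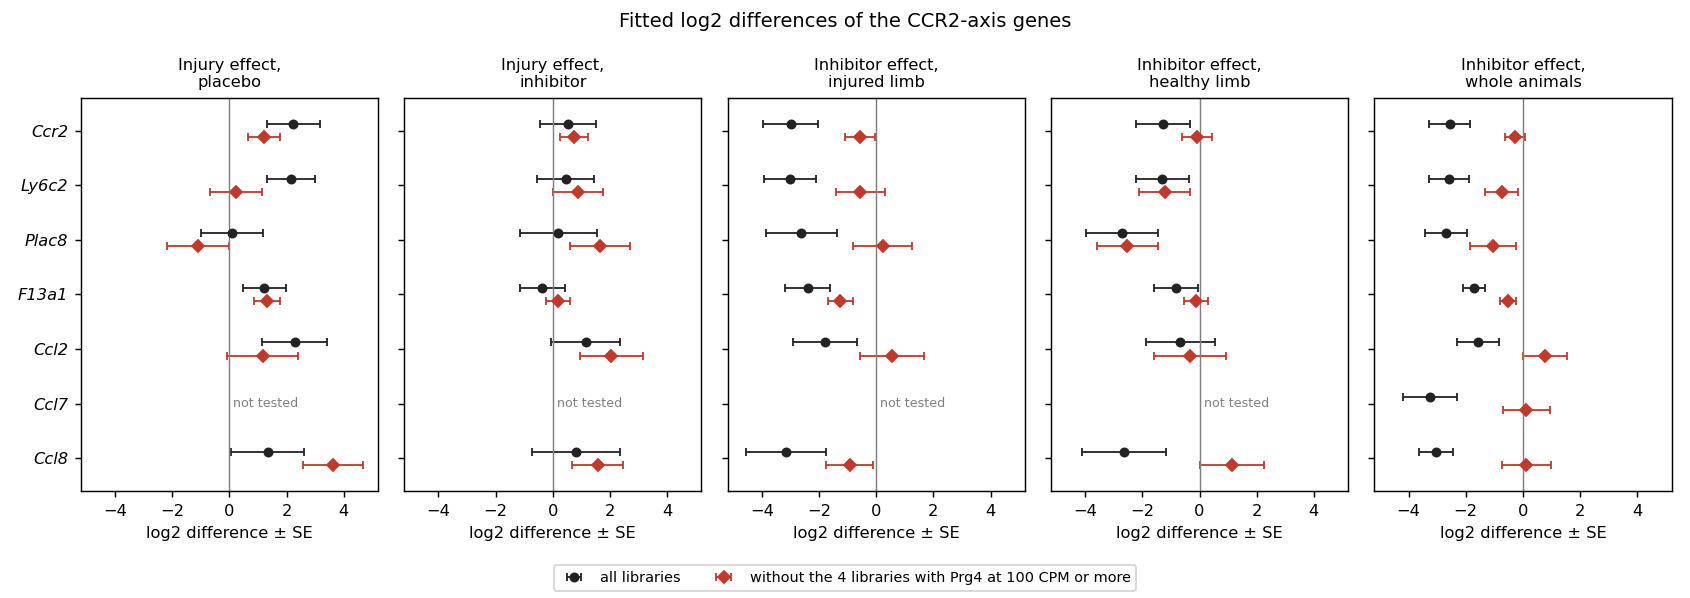
Fitted log2 differences with SE for the 7 genes in 5 comparisons, from all libraries (black circles) and without the 4 libraries with Prg4 at 100 CPM or more (red diamonds). For Ccr2 in whole animals the black value is -2.56 and the red one -0.27.

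The 4 Prg4-high libraries did not carry the members alike. In healthy inhibitor 1, Ccr2 was at 3.57 CPM against 17.5 to 54.9 CPM in the 3 placebo libraries of this kind, and F13a1 at 14.1 CPM against 32.9 to 59.2 CPM. Ccl8 was at 0.503 CPM there against 4.89 to 7.7 CPM. All 6 tested members were lower in healthy inhibitor 1 than in each of the other 3, as were 33.4% of the 15411 tested genes. This sets 1 library against 3 and has no test.

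Other genes of the receptor's pathway are described by counts, since none was called by edgeR. Of 16 tested genes for signalling from CCR2, arrest on endothelium and ligand scavenging, 12 were above 0 and 4 below in injured against healthy placebo muscle, with a median log2 difference of 0.34. In injured muscle 2 were above 0 and 14 below with the inhibitor, with a median of -0.52. Ackr1, an endothelial receptor that binds chemokines without signalling, was at 0.78 ± 0.31 (SE) on the log2 scale with injury, the arrestin gene Arrb2 at 0.88 ± 0.36, and Vav1, an exchange factor of leukocytes, at 1.89 ± 0.78. With the inhibitor in injured muscle Vav1 was at -2.58 ± 0.81, Itgb2, the beta chain of leukocyte integrins, at -3.1 ± 0.91 and Stat3, a transcription factor of cytokine signalling, at -0.31 ± 0.09, with edgeR adjusted p from 0.21 to 0.23.

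Of 14 tested genes for other monocyte attractants and receptors, 13 were above 0 with injury and 12 below 0 with the inhibitor in injured muscle, with medians of 1.3 and -1.48. Csf1r, the inhibitor's target, was at 1.66 ± 0.79 (SE) with injury and -2.1 ± 0.81 with the inhibitor (edgeR, adjusted p = 0.64 and 0.27), and the group means were 12 ± 12.9, 37.7 ± 28.2, 8.33 ± 4.63 and 8.75 ± 2.37 CPM in healthy placebo, injured placebo, healthy inhibitor and injured inhibitor muscle. The chemokine gene Ccl9 was at -2.32 ± 0.83 with the inhibitor, and Cxcr4, the receptor that holds leukocytes in the marrow, at -1.09 ± 0.38. Ccr2 counts per Csf1r count were 0.259 to 0.86 in placebo and 0.18 to 0.673 in inhibitor libraries, ranges that overlapped.

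Of 14 tested genes that induce the chemokines or report NF-kB activity, 13 were above 0 with injury and 13 below 0 with the inhibitor in injured muscle, with medians of 0.34 and -0.55. Tlr2, a sensor of bacterial lipoproteins and tissue damage, was at 1.87 ± 0.54 (SE) with injury and -1.74 ± 0.54 with the inhibitor. The NF-kB subunit gene Nfkb2 was at 0.49 ± 0.15 and -0.51 ± 0.15, and its partner Relb at -0.66 ± 0.19 with the inhibitor. By edgeR adjusted p was 0.64 with injury and 0.22 with the inhibitor for these. The cytokine genes Tnf and Il1b, which induce Ccl2, did not pass the filter and were under the floor in 10 and 12 libraries.

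Among markers of myeloid cells, all 16 tested genes of the list for classical monocytes other than the members were above 0 with injury, with a median of 1.08, and 15 were below 0 with the inhibitor in injured muscle, with a median of -1.47. Itgam, the CD11b gene, was at -3.3 ± 1 (SE) and the Fc receptor gene Fcgr1 at -3.66 ± 1.37 with the inhibitor. All 16 resident macrophage genes were above 0 with injury, with a median of 1.21, and below 0 with the inhibitor, with a median of -1.83; Pf4 was at 1.74 ± 0.67 and -2.48 ± 0.7, and Mrc1, the mannose receptor gene, was at -1.53 ± 0.48 with the inhibitor. The 6 tested genes of non-classical monocytes had medians of 1.92 and -2.14, with the fractalkine receptor gene Cx3cr1 at 2.41 ± 1.29 and -3.6 ± 1.39. The 4 tested neutrophil genes had medians of 1.15 and -2.87, with 3 above 0 and 1 below with injury. The neutrophil genes S100a8, Ngp, Ltf, Camp and Mmp8 did not pass the filter. Each had a lower mean in injured than in healthy placebo muscle, within a wide spread. S100a8 was at 1.05 ± 1.89 and 1.65 ± 2.75 CPM (SD, n = 4) in that order. Lists of other cell types also leaned to one side with injury: all 10 tested genes of fibro-adipogenic progenitors were above 0, with a median of 0.44, as were all 5 mast cell genes, with a median of 0.89, and all 5 blood cell genes, with a median of 0.28. With the inhibitor in injured muscle these medians were -0.34, 0.09 and -0.25. The 10 endothelial genes had medians of -0.13 and 0.19. The comparisons of injury and of the inhibitor share the injured placebo libraries. The lists overlap too: Csf1r is counted with resident macrophage genes and with other attractants, and Cx3cr1 with non-classical monocyte genes and with other attractants. The resident macrophage list also holds genes not confined to resident cells, such as Csf1r and Cd68, so the list names do not separate cell types.

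Without the 4 Prg4-high libraries the medians with injury were 0.67 for the other classical monocyte genes, 1.14 for resident macrophage genes, 0.93 for other attractants, 0.13 for the pathway genes and 0.03 for inducers. With the inhibitor in injured muscle they were -0.04, -0.67, -0.17, -0.04 and -0.11. Non-classical monocyte genes had medians of 1.07 and -0.23 there, and the 4 tested neutrophil genes 1.35 and -1.3. Fibro-adipogenic genes had medians of 0.46 and -0.03, mast cell genes 1.7 and -0.13 and blood cell genes 0.56 and -0.47. Resident macrophage genes thus had 16 of 16 above 0 with injury and 14 of 16 below 0 with the inhibitor in injured muscle. The other classical monocyte genes had 10 of 16 below 0 with the inhibitor there. Both of these comparisons rest on the 2 injured placebo libraries that remained. In healthy muscle without the 4 libraries, 11 of 16 resident macrophage genes were above 0 with the inhibitor, with a median of 0.08. Per animal 12 of the 16 were below 0, with a median of -0.18.

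The members' levels ran together across libraries. Over the 16 libraries, which differ in group, depth and Prg4, Pearson's r of log2 CPM with Ccr2 was 0.88 for F13a1, 0.87 for Ly6c2, 0.87 for Ccl8, 0.82 for Ccl7, 0.81 for Plac8 and 0.76 for Ccl2. It was 0.9 for Csf1r, 0.9 for the macrophage gene Cd68 and 0.8 for Prg4, so genes outside the axis ran with Ccr2 too. Of all tested genes at a mean log2 CPM of 0 or more, Ccr2 was most like the cathepsin gene Ctss at r = 0.975, then Ucp2 at 0.97 and Lilr4b at 0.969, and over the 12 libraries without high Prg4 these were 0.9, 0.87 and 0.84. F13a1 was most like Itgam, Mrc1 and the complement gene C1qc at 0.97, 0.968 and 0.963, with 0.96, 0.94 and 0.89 over the 12 libraries. Ccl8 was most like the Fc receptor gene Fcgr2b at 0.94 and Ccl7 most like Leprot at 0.954, and these were 0.78 and 0.79 over the 12 libraries. Ccl2 was most like Sept8 at 0.951, Plac8 most like Cdh11 at 0.931 and Ly6c2 most like Serp1 at 0.933. With group means subtracted, Sept8 stayed first for Ccl2 and Leprot for Ccl7, while another gene came first for each of the other members. Those most like Ccl8 were then Serpinh1, P4hb and Lox, and those most like Plac8 were Oasl2, Samd9l and Pirb. These values describe likeness across libraries and carry no test.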

How the data were processed

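The authors deposited 1 table of expected counts for Ensembl genes, as raw values without scaling. The submitters' processing notes list the tools STAR, Partek and DESeq2 and the build GRCm38 (mm10) with no role or version; the annotation release is not given in the sources used here. Of the deposited values 24.2% differed from a whole number by over 0.01, and all were rounded. Symbols and loci came from GENCODE M21. EdgeR 4.0.16 (R 4.3.3) applied filterByExpr (minimum count 10) and TMM and fitted 4 group means to 16 libraries by the robust quasi-likelihood method with 12 residual degrees of freedom. Tests were two-sided with Benjamini-Hochberg adjustment over all tested genes at 0.05. SEs were derived from the F statistic. CPM used TMM-scaled totals. Counts summed per animal left 6 residual degrees of freedom.

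Members and lists were chosen with earlier results of these data known. Named were the 7 members, Ccl12 and Ly6c1, up to 3 genes per list by smallest p, and the 3 genes most like each member; a subset of these is printed, and Acta1, Ckm, Prg4, Ccl11, Tnf, Il1b, Camp, Ngp, Acan and Cd68 were added after their values were seen. Alternatives were DESeq2 size factors, no filter, DESeq2 1.42.0, limma-voom 3.58.1, blocking on the animal, and leaving out each library or animal. Deviations of the limbs of 1 animal, paired by the library names, correlated at 0.53, -0.23, -0.12 and -0.58 in placebo and 0.29, -0.05, 0 and -0.11 in inhibitor animals. The code itself was checked on simulated counts with known changes.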

Additional observations from a re-analysis of the deposited data

Results flagged for a closer look

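In 4 of the 28 sets of 4 libraries looked at, 7 members in 4 groups, 1 library lay far from the other 3. For independent, normally distributed values this occurs in about 1 of 20 sets. The CPM values were not logged and the sets share libraries, so that rate need not hold here, and no explanation was tested. Ccr2 was at 17.5 CPM in healthy placebo 4, where the next highest library of the group was at 3.3 CPM, and at 7.8 CPM in injured inhibitor 3, where the next was at 2.63 CPM. Ccl8 was at 5.42 CPM in healthy placebo 4 against 0.117 CPM in the next library, and at 0.503 CPM in healthy inhibitor 1 against 0.159 CPM. Healthy placebo 4 and healthy inhibitor 1 are among the 4 libraries high in Prg4, with 251 and 169 CPM of that gene, while injured inhibitor 3 had 11.6 CPM.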

How the results depend on the processing

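Of 679 member values under the alternatives, 626 kept their direction and their side of the threshold, 39 changed sign and 14 passed a threshold they had missed. DESeq2 called 2 genes for injury with placebo, 1 for injury with inhibitor, 248 and 12 for the inhibitor in injured and healthy muscle, and 587 per animal, where edgeR called none. Leaving out 1 library or animal gave 0 to 3, 0 to 38 and 0 to 1 called genes for injury with placebo and for the inhibitor in injured and healthy muscle, and 0 to 1570 per animal; the 3 and 38 came without injured placebo 4, the 1 without healthy placebo 1. Leaving out 1 library moved Plac8 between -0.48 and 1.76 (injury, placebo), -0.23 and 1.66 (injury, inhibitor), -0.14 and 0.98 (injury, average) and -1.56 and 1.57 (difference of injury effects). It moved the inhibitor effect in healthy muscle between -1.62 and 0.13 for Ccr2, -1.37 and 0.43 for F13a1, -1.58 and 0.58 for Ccl2 and -3.39 and 1.9 for Ccl8, the injury effect with inhibitor between -0.19 and 0.75 for Ccr2 and -0.57 and 0.18 for F13a1, and the difference of injury effects between -5.05 and 0.23 for Ccl8. Limma-voom gave 0.16 for Ccl8 with the inhibitor in healthy muscle. Without the 4 Prg4-high libraries, chosen after seeing the data, 1 gene was called per animal, and Plac8 was at -1.1 (injury, placebo) and 0.23 (inhibitor, injured), Ccl2 at 0.55 (inhibitor, injured), F13a1 at 0.18 (injury, inhibitor), Ccl8 at 1.14 (inhibitor, healthy), Ly6c2 and Ccl2 at 0.66 and 0.88 (difference), and Ccl2, Ccl7 and Ccl8 at 0.77, 0.12 and 0.12 (per animal). With the animal as a block no gene was called in the 4 injury comparisons, and Ccr2 was at 2.51 ± 1.2 (SE) with injury under placebo, Ccl8 at 3.8 ± 2.16; the pairing was read from the library names. The cause of these changes was not tested. Levels with plain library totals moved by less than 1 SD in each group, and with group means subtracted 0 to 2 of the 3 genes most like each member stayed. Counts under the floor limit Ly6c2, Plac8, Ccl2, Ccl7 and Ccl8.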
